A study of Homo sapiens with 6 samples.

Results

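The keratin genes of the human genome were described here across 3 lists of accessible regions from breast epithelial cells. Members were the autosomal protein-coding genes of GENCODE release 44 whose symbol is KRT, a number and at most 1 further letter. This rule gave 55 of 19103 genes, 27 on chromosome 12 and 28 on chromosome 17. The rule used names and no measured value, but it was set with earlier results of these data known.

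ATAC-seq, which maps open DNA through adapter insertion by the Tn5 transposase, was carried out in MCF-10A, a non-tumorigenic breast epithelial line. The E545K cells carried a knock-in mutation in the helical domain of PIK3CA, the catalytic PI3K subunit, the H1047R cells one in its kinase domain, and the WT cells were the parental line. Each genotype had 2 samples and 1 peak list made from both, so the lists hold no replicate values and every difference below is a description of 3 lists, with no test across samples. Both knock-ins had been maintained without EGF (0 ng/ml) and WT with 20 ng/ml EGF, before 24 h of all cells in medium with 0.2 ng/ml EGF, 1% stripped serum, insulin, hydrocortisone and cholera toxin, so genotype and maintenance medium cannot be told apart. The labels do not say whether a knock-in line was 1 clone.

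Keratins build the intermediate filaments of epithelial cells as pairs of a type I and a type II protein. Type II genes and the type I gene KRT18 lie on chromosome 12, and the remaining type I genes on chromosome 17, split by the keratin-associated protein genes of hair. Basal cells of stratified epithelia and of the breast are known for KRT5, KRT14 and KRT15, injured epidermis for KRT6, KRT16 and KRT17, simple and luminal epithelia for KRT7, KRT8, KRT18 and KRT19, and differentiated epidermis for KRT1 and KRT10.

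The E545K list held 89416 peaks, the H1047R list 106747 and the WT list 98910, and sequencing depth is unknown. PIK3CA had a promoter peak in each list (area 6416 in E545K, 7244 in H1047R and 7476 in WT) and a peak does not show the edited base. Peak area here means what the caller's curve encloses over the peak, which grows with width and is no read count. The summit value is the -log10 p at the summit. A promoter peak in each list was found at 5 of 5 pan-epithelial, 6 of 7 basal and 4 of 5 luminal genes, against 1 of 5 fibroblast, 1 of 5 immune and 1 of 4 endothelial genes, where the share over all genes was 65.5%.

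Sequences at which the results turn are shown first: a promoter with a peak in each list (KRT5), promoters with a peak in 1 list only (KRT75 in H1047R and KRT10 in E545K), a promoter with no peak nearby in any list (KRT4), and the summits with the highest value between KRT75 and KRT6B and between KRT13 and KRT15. Promoters are from RefSeq on GRCh38.p14, 250 bases before to 50 after the start, and all 4 lie on the minus strand, at chr12:52520345-52520644 for KRT5, chr12:52434322-52434621 for KRT75, chr17:40822565-40822864 for KRT10 and chr12:52814067-52814366 for KRT4. The summit windows are 201 bases of the hg38 plus strand, chr12:52442791-52442991 around the WT summit between KRT75 and KRT6B, and chr17:41511303-41511503 around the H1047R summit between KRT13 and KRT15. Capitals mark matches to 8 motifs sought on both strands: the TATA box (TATAAA), AP-1 (TGANTCA), SP (GGGCGG), KLF (CCACCC), AP-2 (GCCNNNGGC), TEAD (GGAATG), RUNX (TGTGGT) and paired p63 sites (named only).
KRT5 promoter: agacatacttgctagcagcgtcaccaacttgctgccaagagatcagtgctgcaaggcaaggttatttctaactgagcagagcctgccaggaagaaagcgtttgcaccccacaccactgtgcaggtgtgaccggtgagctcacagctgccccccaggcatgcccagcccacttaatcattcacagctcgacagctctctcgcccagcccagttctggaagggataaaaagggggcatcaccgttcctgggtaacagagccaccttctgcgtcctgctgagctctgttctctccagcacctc
KRT75 promoter: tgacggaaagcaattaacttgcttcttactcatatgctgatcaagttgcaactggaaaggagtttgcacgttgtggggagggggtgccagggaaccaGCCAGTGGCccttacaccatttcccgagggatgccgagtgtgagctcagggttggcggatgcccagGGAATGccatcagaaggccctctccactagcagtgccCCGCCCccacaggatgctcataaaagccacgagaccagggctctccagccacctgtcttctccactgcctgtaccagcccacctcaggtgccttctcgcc
KRT10 promoter: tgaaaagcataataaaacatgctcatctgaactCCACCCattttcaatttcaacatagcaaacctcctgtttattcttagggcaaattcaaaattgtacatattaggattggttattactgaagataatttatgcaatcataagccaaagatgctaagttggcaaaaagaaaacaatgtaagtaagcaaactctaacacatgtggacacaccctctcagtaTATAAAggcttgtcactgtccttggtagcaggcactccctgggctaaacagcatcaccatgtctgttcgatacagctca
KRT4 promoter: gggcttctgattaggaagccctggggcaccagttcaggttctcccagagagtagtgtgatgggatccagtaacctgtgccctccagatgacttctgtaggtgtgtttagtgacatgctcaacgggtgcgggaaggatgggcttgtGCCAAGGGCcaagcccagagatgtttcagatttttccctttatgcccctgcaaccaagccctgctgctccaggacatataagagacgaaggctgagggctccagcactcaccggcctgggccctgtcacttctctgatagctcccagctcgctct
peak between KRT75 and KRT6B: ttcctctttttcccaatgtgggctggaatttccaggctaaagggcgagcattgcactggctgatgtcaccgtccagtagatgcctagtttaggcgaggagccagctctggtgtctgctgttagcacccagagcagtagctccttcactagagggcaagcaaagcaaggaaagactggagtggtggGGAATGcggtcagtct
peak between KRT13 and KRT15: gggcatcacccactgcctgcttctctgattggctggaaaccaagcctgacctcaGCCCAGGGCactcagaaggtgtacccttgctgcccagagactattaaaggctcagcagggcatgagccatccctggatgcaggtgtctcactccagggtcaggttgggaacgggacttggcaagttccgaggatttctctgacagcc

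The KRT5 window held none of these letters. KRT75 held AP-2 letters at -153, TEAD letters at -87 and SP letters at -50 from the start, KRT10 held KLF letters at -217 and a TATA box at -29, and KRT4 held AP-2 letters at -105. Among all 35116 RefSeq promoters of this length, 11.5% held a TATA box, 7.71% AP-1, 45.0% SP, 34.3% KLF, 23.2% AP-2, 14.03% TEAD, 13.1% RUNX and 0.373% p63 letters. Of the 55 keratins 34 had a promoter in the RefSeq table, and 21 of these (61.8%) held a TATA box, while 0 held AP-1 letters and 6 (17.6%) SP letters. Of the 13 keratins with a promoter peak in each list, only KRT5 and KRT8 were among these 34. Neither held TATA, AP-1 or SP letters, so the shares describe mainly keratins without a promoter peak in each list. SP and KLF letters can overlap in GC-rich stretches, and a match is a description and not a site.

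Most keratin promoters had no peak, and those with one in each list were largely those of basal, wound and simple epithelium. A peak within 1 kb of the annotated start was found for 14 of 55 keratins in E545K (25.5%), 15 in H1047R (27.3%) and 15 in WT (27.3%). Over all genes these shares were 67.7% in E545K, 68.1% in H1047R and 67.4% in WT. Counting the gene body and 5 kb on each side, 37 keratins had a peak in E545K, 40 in H1047R and 40 in WT (67.3%, 72.7% and 72.7%), against 86.3%, 88% and 87.6% of all genes. A promoter peak was present in all 3 lists for 13 keratins (23.6%, all genes 65.5%), in none for 38 (69.1%, all genes 30%) and in some lists for 4 (7.27%, all genes 4.55%).

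By role, all 3 basal keratins and all 5 wound keratins had a promoter peak in each list. Of 5 simple keratins KRT7, KRT8 and KRT18 did, and KRT19 and the intestinal keratin KRT20 did not. No member of the 4 suprabasal, 5 mucosal and corneal, 9 inner root sheath and companion layer and 17 hair keratins had one in each list at the canonical start, but the hair keratin KRT86 had one in each list at another coding start. Of the other 7 keratins, KRT80 and KRT23 did. In all, 15 keratins had no peak within 5 kb of the gene body in any list: KRT20 among the simple ones, KRT4, KRT12 and KRT76 of mucosa and cornea, KRT25, KRT26, KRT27, KRT73 and KRT74 of the inner root sheath, KRT31, KRT33B, KRT35, KRT40 and KRT85 of hair, and KRT222.

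**Figure D1:**
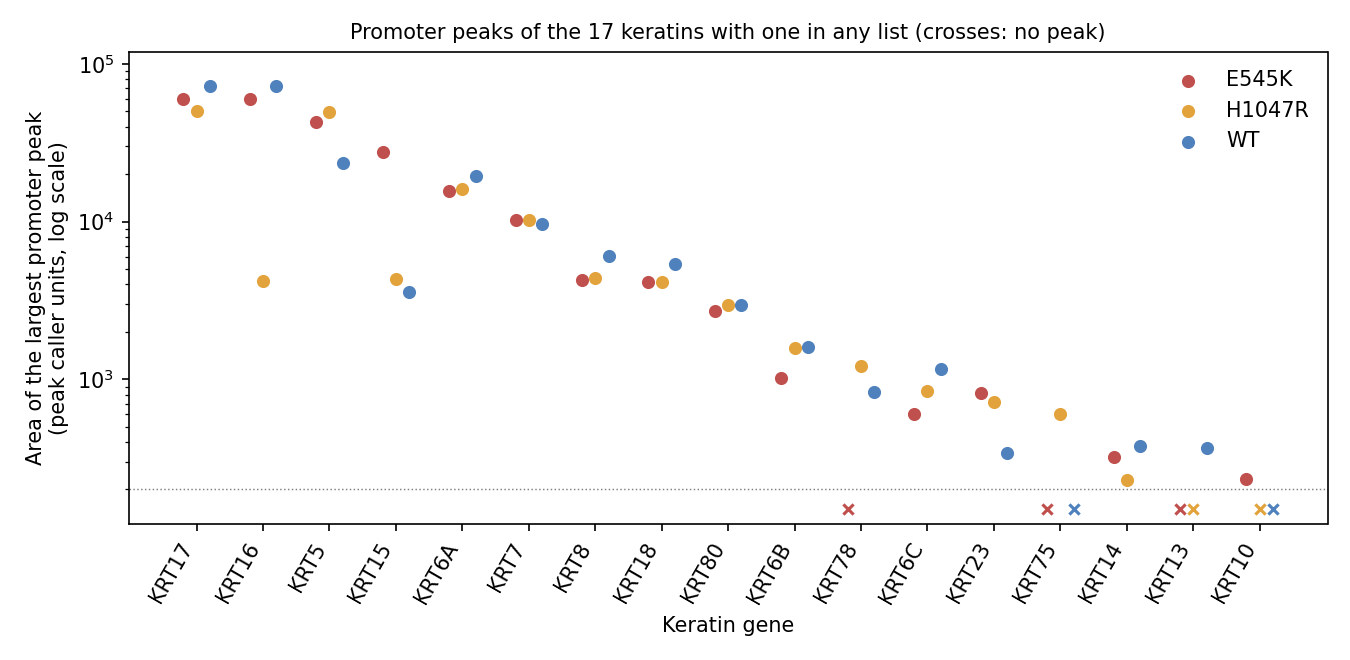
Area of the largest promoter peak (log scale, peak caller units) of the 17 keratins with one in any list, one point per list, with crosses where a list had none. KRT17 reached 60191 in E545K, 50205 in H1047R and 72755 in WT, whereas KRT14 stayed at 320, 231 and 377. KRT16 had 60191 in E545K, 4214 in H1047R and 72755 in WT, as the KRT17 peak reached its promoter in E545K and WT. KRT15 had 27585 in E545K, 4320 in H1047R and 3564 in WT. That E545K peak spanned several peaks of the other lists, with summed areas of 10346 in H1047R and 4494 in WT.

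Among the basal keratins, KRT5, the type II partner of the basal layer (ENSG00000186081.12, hg38 chromosome 12, 52514575 to 52520530, minus strand), lay almost wholly within peaks. Summed over the gene and its flanks its peak area was 44038 in E545K, 49717 in H1047R and 46247 in WT, with highest summit values of 10.31, 10.07 and 11.26. The 3 lists were close. The largest promoter peak alone had an area of 42938 in E545K, 49717 in H1047R and 23398 in WT, where the same stretch was called as separate peaks of 23398 and 21254. The summit lay 96 bp upstream of the start in E545K and 92 bp upstream in H1047R.

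KRT14, the type I partner of KRT5 (ENSG00000186847.6, chromosome 17, 41582279 to 41586895, minus strand), had small promoter peaks with areas of 320 in E545K, 231 in H1047R and 377 in WT. Their summits lay 1021 bp, 1074 bp and 1021 bp downstream of the start, and a peak over the start itself was called in H1047R alone, with an area of 222. With a minimum area of 400 KRT14 had no promoter peak in any list. Within the gene, a peak at 41584437 to 41584954 had an area of 767 in E545K and 469 in H1047R and was absent from WT. The E545K peak there was the only keratin peak in the upper 50% of the E545K list by area without a WT partner, a partner being an overlap of at least 1 bp.

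KRT15, a type I keratin of basal cells and of hair follicle stem cells (ENSG00000171346.16, chromosome 17, 41513745 to 41522529, minus strand), differed between the lists in covered length. In E545K peaks covered 98.8% of the gene body, against 43.97% in H1047R and 25.9% in WT. A single E545K peak of 10812 bp (41509836 to 41520647, area 27585) spanned 3 H1047R peaks with a summed area of 10346 and 3 WT peaks with a summed area of 4494. From the start of KRT13 to the start of KRT19, 22.7 kb, peaks covered 13.97 kb in E545K, 8.43 kb in H1047R and 5.32 kb in WT. Summed areas there were 34370, 15123 and 6325, and the highest summit values 7.93, 6.56 and 5.90, in the same order of lists. E545K thus ranked above H1047R and H1047R above WT in covered length, area and summit value alike.

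Around KRT15 the 3 peaks given next followed the same order by area, while a peak at 41506464 to 41506719 was called in WT alone (area 366) and one between KRT36 and KRT13 had areas of 2081 in E545K, 1778 in H1047R and 1804 in WT. Upstream of the annotated KRT15 start, the peak at 41520752 to 41523120 had an area of 5861 in E545K, 4011 in H1047R and 1123 in WT, with summit values of 7.58, 5.95 and 3.81. The peak upstream of KRT13, a mucosal type I keratin, at 41507282 to 41508067, had areas of 925, 766 and 343 in these lists, and summit values of 4.22, 4.35 and 2.95. The peak upstream of KRT19, a simple epithelial type I keratin without a usual type II partner, at 41529547 to 41530681, had areas of 904, 559 and 272, and summit values of 4.28 in E545K, 4.29 in H1047R and 3.2 in WT. By summit value the E545K and H1047R peaks beside KRT13 and KRT19 were nearly level, and both stood above WT. KRT19 itself had no promoter peak, its nearest peak lying 1239 bp from the start in E545K, 1733 bp in H1047R and 1851 bp in WT. The sequence shown between KRT13 and KRT15, under the H1047R and WT summits and inside the wide E545K peak, held AP-2 letters, which 11.8% of all H1047R summit windows held.

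**Figure D2:**
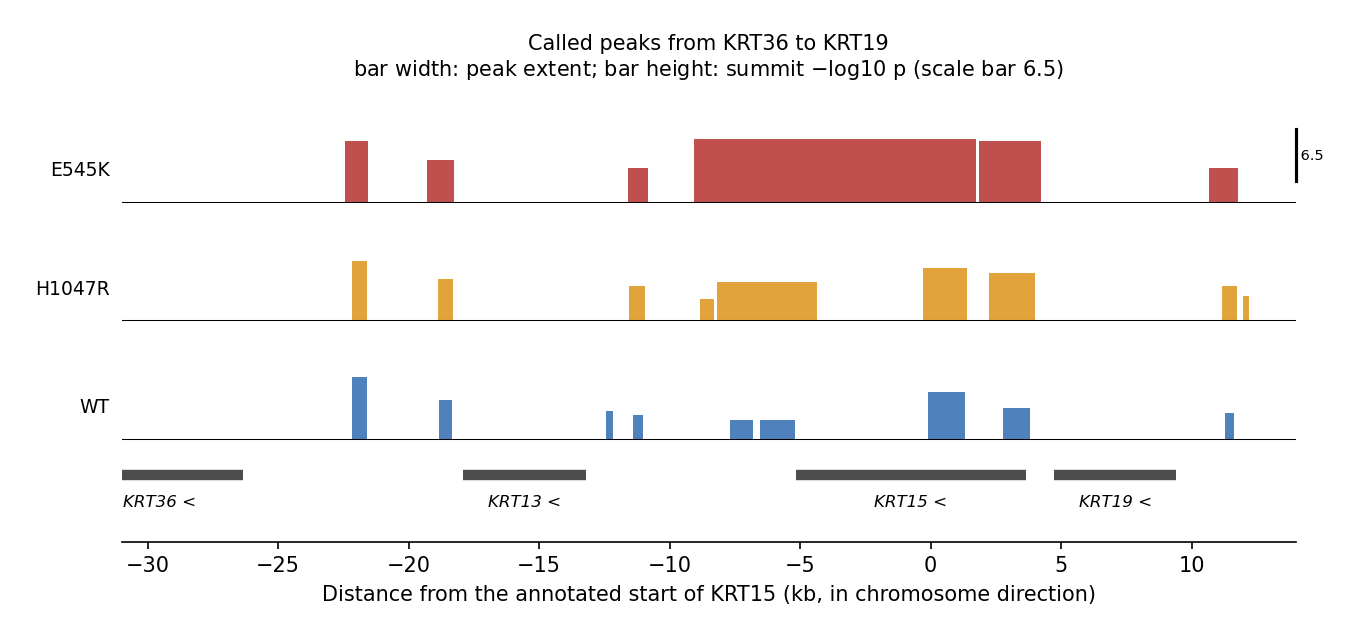
Called peaks from KRT36 to KRT19 in the 3 lists, against distance in kb from the KRT15 start. Bars span each peak, their height is the summit value, grey bars are genes. Peaks from the KRT13 start to the KRT19 start cover 61.5% in E545K, 37.1% in H1047R and 23.5% in WT.

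Among the wound keratins, KRT16 and KRT17 (ENSG00000186832.9 and ENSG00000128422.18, chromosome 17), type I keratins induced in injured epidermis, held the largest keratin peaks. From the end of KRT16 to the start of KRT17, 14.8 kb, peaks covered 100% in E545K, 88.7% in H1047R and 85.0% in WT. At KRT17 the promoter peak had an area of 60191 in E545K, 50205 in H1047R and 72755 in WT, with highest summit values of 10.07, 10.21 and 12.09. In E545K and WT that peak also reached the KRT16 promoter, whereas in H1047R KRT16 had a separate peak with an area of 4214. KRT16 was covered by peaks over 100% of its length in E545K, 72.6% in H1047R and 63.7% in WT.

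KRT6A, the type II partner of KRT16 in wounds (ENSG00000205420.11, chromosome 12, 52487176 to 52493257), had a promoter peak with an area of 15686 in E545K, 16185 in H1047R and 19411 in WT. Its near copies had smaller ones, KRT6B with 1019 in E545K, 1580 in H1047R and 1595 in WT, and KRT6C with 603, 839 and 1158. Summit values were 9.92, 9.04 and 10.69 for KRT6A, 4.66, 5.63 and 5.69 for KRT6B and 3.96, 4.49 and 5.26 for KRT6C, in the same order of lists. By area, all 3 copies had their smallest promoter peak in E545K and their largest in WT, but by summit value KRT6A was lowest in H1047R. Of the 31-base words of the promoter windows, 27.9% for KRT6A, 43.3% for KRT6B and 49.7% for KRT6C occur elsewhere in hg38, as do 29.1% for KRT14, 38.5% for KRT16 and 37.4% for KRT17, against 1.88% for KRT5 and 3.86% for KRT15. Shares were also high for KRT81 (40.9%), KRT18 (27.2%), KRT8 (23.6%), KRT34 (21.7%) and KRT31 (20.3%). The sources used here do not say how reads with several matches were handled. Values of these genes and of the copies, and a lack of peaks there, are therefore uncertain.

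Between KRT6B and KRT75 E545K was lowest and H1047R highest. Summed over the 12.3 kb from the end of KRT6B to the start of KRT75, peak area was 3853 in E545K, 10091 in H1047R and 7628 in WT, and peaks covered 2.41 kb, 4.17 kb and 3.38 kb. The peak whose sequence is shown, at 52442278 to 52443232, had an area of 1076 in E545K, 3203 in H1047R and 2750 in WT, with summit values of 4.13, 7.49 and 6.88. Its TEAD letters occur in 18.1% of all WT summit windows. A peak upstream of KRT6B at 52454425 to 52455027 went the other way, with areas of 608 in E545K, 456 in H1047R and 292 in WT.

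**Figure D3:**
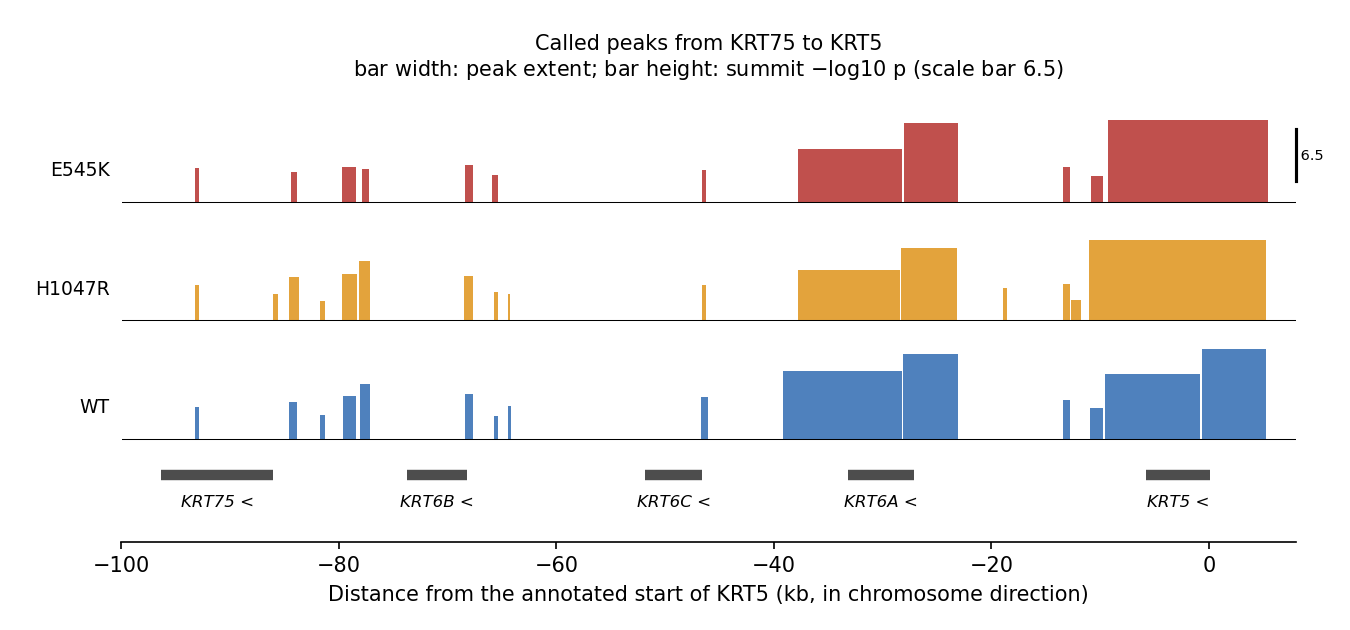
Called peaks from KRT75 to KRT5, against distance in kb from the KRT5 start. Bars span each peak, their height is the summit value, grey bars are genes. KRT6A and KRT5 lie under wide peaks in each list, and the peaks between KRT75 and KRT6B are lower in E545K, where the highest summit value is 4.36 against 7.49 in H1047R and 6.88 in WT.

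**Figure D4:**
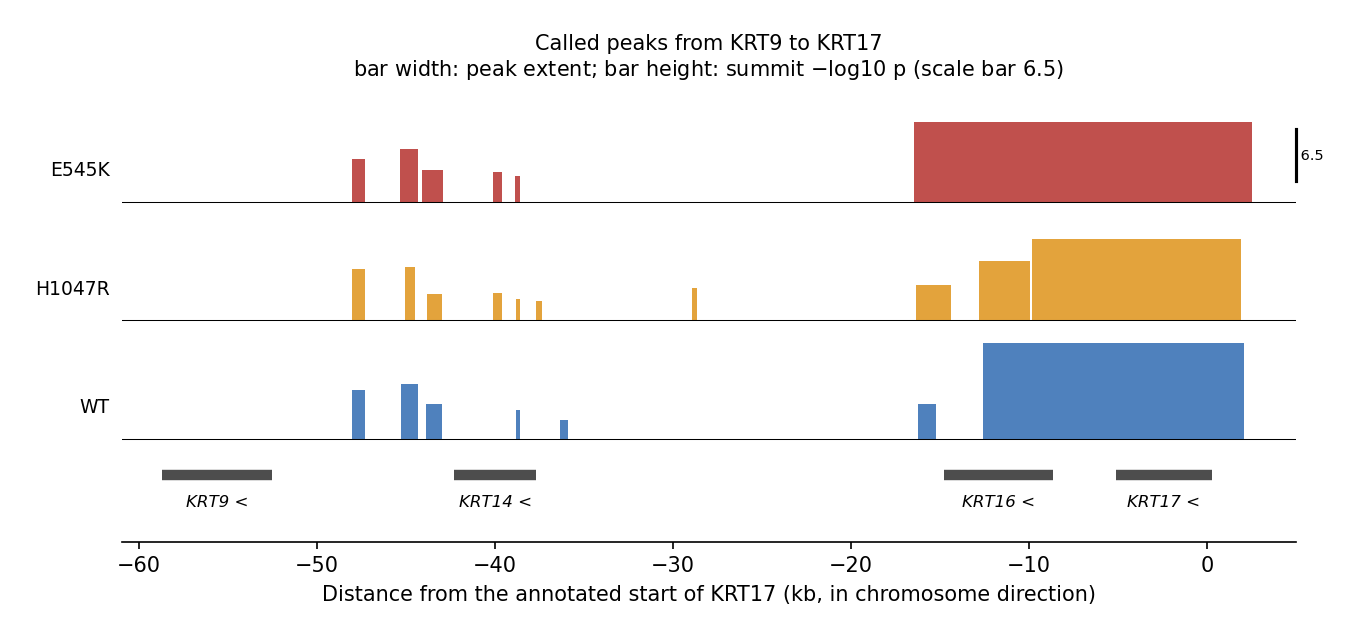
Called peaks from KRT9 to KRT17, against distance in kb from the KRT17 start. Bars span each peak, their height is the summit value, grey bars are genes. KRT17 and KRT16 share 1 peak in E545K and in WT, and H1047R has 3 peaks there.

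Among the simple keratins, KRT7 (ENSG00000135480.17, chromosome 12, 52232520 to 52252186), a type II keratin of ducts, had a promoter peak with an area of 10281 in E545K, 10241 in H1047R and 9723 in WT. Downstream, an E545K peak of 21036 bp (area 47568) running into KRT86 spanned 5 H1047R peaks with a summed area of 38917 and 2 WT peaks with 35203. From the KRT7 start to the KRT81 start peaks covered 62.8% in E545K, 59.2% in H1047R and 59.5% in WT. Hair keratins KRT86 and KRT81 thus lay beside strong peaks, with summed areas of 25594 in E545K, 23353 in H1047R and 22678 in WT in KRT81 and its flanks, yet had no peak at their canonical starts. At another coding start KRT86 had a peak in each list.

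KRT8, the type II partner of KRT18 (ENSG00000170421.13, chromosome 12, 52897187 to 52949954), had a promoter area of 4237 in E545K, 4389 in H1047R and 6074 in WT. KRT18 (ENSG00000111057.11) had 4165 in E545K, 4130 in H1047R and 5369 in WT. By promoter area the knock-ins were close together and below WT for both genes. Further upstream of the canonical KRT8 start, the stretch at 52906138 to 52908732 differed from this. Its summed peak area was 6958 in E545K, 5864 in H1047R and 7154 in WT, with highest summit values of 8.99, 7.68 and 9.31. A peak beyond the 3' end of KRT8 at 52895064 to 52897140 had an area of 2382 in E545K, 531 in H1047R and 2029 in WT, with summit values of 3.97, 2.33 and 3.42, H1047R being lowest by both. A peak near KRT18 at 52951667 to 52952535 had areas of 855, 793 and 1465 in these lists.

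Promoter peaks in some lists only were found at 4 keratins of differentiated or other epithelia. KRT10, a type I keratin of suprabasal epidermis, had a promoter peak in E545K alone, with an area of 233 and a summit value of 2.51. Its nearest edge lay 767 bp downstream of the start and did not reach the sequence shown. KRT75, a type II keratin of the hair follicle companion layer, had one in H1047R alone, with an area of 604 and a summit inside the sequence shown. KRT13 had one in WT alone, with an area of 366. KRT78 had one in H1047R (1207) and WT (834), and the E545K peak of area 760 at the same place ended 1001 bp from the start. The H1047R and WT peaks ended 848 bp and 987 bp from it, so the call turned on the edge of the window. With any coding start counted, KRT78 had a peak in each list and KRT79 had one in E545K alone. The KRT10 peak was close to the smallest area of its list. By ordered pair, 1 keratin promoter had a peak in E545K and not in WT (all genes 1.72%), 2 in WT and not in E545K (1.41%), 1 in H1047R and not in WT (1.79%), 1 in WT and not in H1047R (1.03%), 1 in E545K and not in H1047R (1.35%) and 2 in H1047R and not in E545K (1.8%).

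KRT80 (ENSG00000167767.14), a type II keratin found in many epithelia, had a promoter area of 2713 in E545K, 2968 in H1047R and 2962 in WT. KRT23, a type I keratin, had 813 in E545K, 719 in H1047R and 343 in WT, with summit values of 4.13, 4.06 and 2.89. Those KRT23 summits lay 968 bp, 880 bp and 859 bp downstream of the start. A peak over the KRT23 start itself was called in E545K (area 287) and H1047R (337) and not in WT. KRT24, another type I keratin, had a peak downstream of the gene with an area of 236 in E545K, 911 in H1047R and 525 in WT. Hair keratin KRT37 had one downstream with areas of 213, 463 and 595 in these lists, and KRT34 one within the gene with 891, 701 and 1392. Summit values were 2.54, 4.35 and 3.47 for KRT24, 2.77, 3.63 and 4.35 for KRT37 and 4.42, 4.24 and 5.78 for KRT34.

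In regions holding exactly 1 peak of each list, 62 of 69662 near keratins, peaks were ranked by area within their list and the ranks subtracted, in percentile points. The median difference over the keratin regions was -0.23 for E545K minus WT, 1.16 for H1047R minus WT and 0.92 for E545K minus H1047R, against -0.29, -0.24 and -0.03 over all regions. By cluster, E545K minus WT had a median of -3.30 over 37 regions on chromosome 12 and 4.54 over 25 on chromosome 17, H1047R minus WT -1.41 and 4.36, and E545K minus H1047R 0.77 and 5.41. These comparisons share lists, so they are not independent of each other.

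Differences of at least 10 points had shares near those of all regions. E545K was higher than WT in 13 keratin regions (21.0%, all regions 17.1%) and lower in 11 (17.7%, all 17.7%). H1047R was higher than WT in 14 (22.6%, all 17.6%) and lower in 13 (21.0%, all 18.3%). E545K was higher than H1047R in 15 (24.2%, all 17.2%) and lower in 12 (19.4%, all 17%). Ranked by summit value, E545K was higher than WT in 11 and lower in 16, and H1047R higher than WT in 14 and lower in 17. E545K was then higher than H1047R in 13 and lower in 16, so the larger side depended on the ranking in each pair. Shares over all regions were not counted for that ranking. Its spread over all regions was wider, with a 10th to 90th percentile of -17.1 to 17.4 for E545K minus WT, against -15.7 to 16.2 by area.

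Differences of at least 30 points were few. E545K was higher than WT in 5 keratin regions (8.06%, all 3.19%) and lower in 1 (1.61%, all 2.44%). The 5 were the peaks at or beside KRT19 (53.1 points), KRT13 (47.6), KRT23 (43.1), KRT15 (37.1) and KRT6B (36.3), of which 4 lie on chromosome 17. The 1 was at KRT37 (-32.0). H1047R was higher than WT in 2 (3.23%, all 3.3%), at KRT15 (31.4) and beside KRT13 (30.6), and lower in 1 (1.61%, all 2.46%), beside KRT8 (-52.8). E545K was higher than H1047R in 2 (3.23%, all 2.36%), beside KRT8 (59.0) and KRT19 (30.6), and lower in 1 (1.61%, all 2.52%), beside KRT24 (-44.5).

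Ranked by summit value instead, some of these regions no longer differed by 30 points. E545K minus WT was 21.5 beside KRT6B, H1047R minus WT was -14.8 beside KRT8 and E545K minus H1047R was 13.8 beside KRT19. Others passed instead, the KRT6B peak whose sequence is shown at -34.0 for E545K minus WT and -41.0 for E545K minus H1047R, peaks at KRT34 (-32.4) and at KRT8 and KRT18 (-32.0) for H1047R minus WT, and a KRT14 peak (34.4) for E545K minus H1047R. Past 30 points by both rankings were the peaks at or beside KRT13, KRT15, KRT19, KRT23 and KRT37 for E545K minus WT. For H1047R minus WT they were those at or beside KRT13 and KRT15, and for E545K minus H1047R those beside KRT8 and KRT24.

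**Figure D5:**
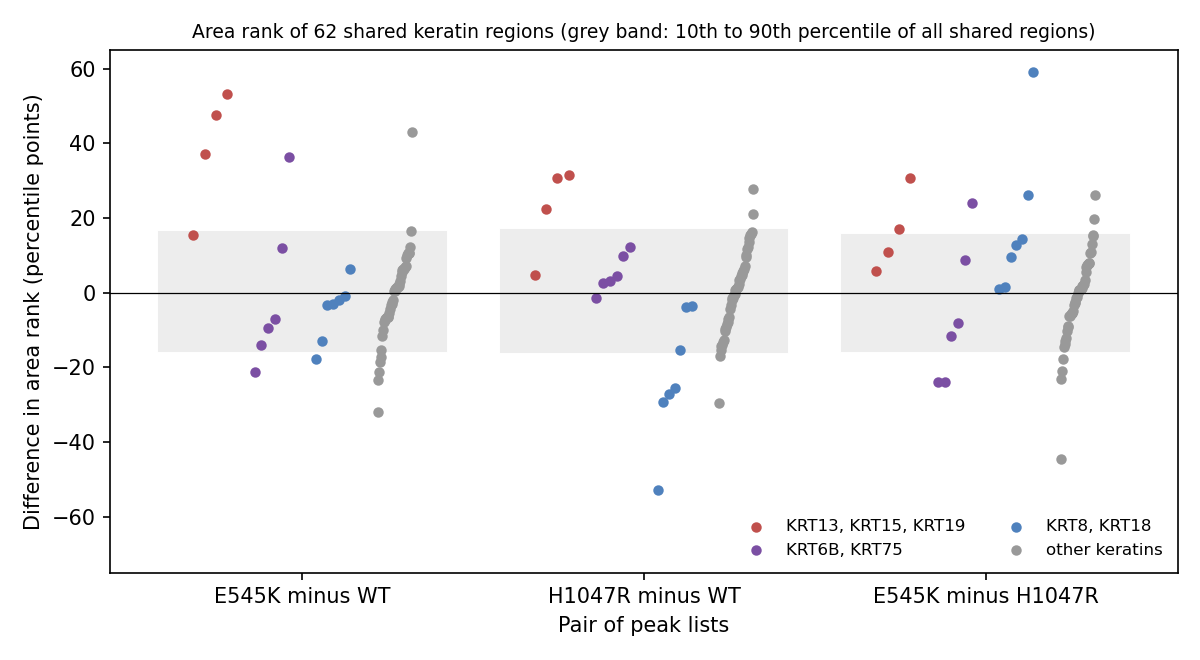
Difference in area rank (percentile points) of the 62 shared keratin regions for each pair of lists, one point per region, coloured by locus, over a grey band from the 10th to the 90th percentile of all shared regions. Points coloured for KRT13, KRT15 and KRT19, which leave out a peak shared with KRT36 (-1.32 for H1047R minus WT), are above 0 for each pair, up to 53.1 for E545K minus WT, and the lowest point, -52.8 for H1047R minus WT, lies beside KRT8.

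Most keratin peaks had a partner in each other list. Of the 79 E545K peaks near keratins 6 had no WT partner (7.59%, all peaks 12.6%), while 13 of 93 WT peaks lacked one in E545K (13.98%, all 20.3%). In H1047R, 15 of 105 lacked a WT partner (14.3%, all 17.9%), and 5 WT peaks lacked one in H1047R (5.38%, all 11%). Between the knock-ins, 2 E545K peaks had no H1047R partner (2.53%, all 9.14%) and 18 H1047R peaks had no E545K partner (17.1%, all 23.6%). In the upper 50% of a list by area, 1 E545K peak near keratins had no WT partner, the one in KRT14 (1.85%, all 2.55%). In turn 1 WT peak had no E545K partner (1.79%, all 2.13%), in KRT77, a type II keratin, at 52698823 to 52699480 (area 716 in WT and 456 in H1047R), and 1 H1047R peak had none in E545K (1.59%, all 2.87%), upstream of KRT2, a type II keratin of upper epidermis, at 52655349 to 52656145 (area 671 in H1047R and 611 in WT). The count was 0 for H1047R against WT (all 2.95%), 0 for WT against H1047R (all 1.4%) and 0 for E545K against H1047R (all 1.6%).

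Wide peaks had a larger share near keratins than over all peaks, though most keratin peaks were not wide. Median width near keratins was 641 bp in E545K, 566 bp in H1047R and 593 bp in WT, against 539, 466 and 466 bp over all peaks. Peaks over 5 kb made up 6 of 79 in E545K (7.59%, all peaks 0.407%), 6 of 105 in H1047R (5.71%, all 0.174%) and 7 of 93 in WT (7.53%, all 0.214%). They lay at KRT7 and KRT86, KRT81, KRT6A, KRT5 and KRT16 to KRT17 in the 3 lists, and at KRT15 in E545K alone. In the upper 1% of a list by area were 8 keratin peaks in E545K (10.1%, all 1%), 7 in H1047R (6.67%, all 1%) and 8 in WT (8.60%, all 1%). Neighbouring keratins can share such a peak.

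Within 100 bases of the summit, AP-1 letters occurred in 36.7% of keratin peaks in E545K, 33.3% in H1047R and 33.3% in WT, against 32.5%, 36.9% and 34.4% of all peaks of these lists. SP letters were at 10.1%, 7.62% and 6.45% near keratins against 16.8%, 14.9% and 15.4%, and TEAD letters at 25.3%, 21.0% and 21.5% against 17.4%, 16.7% and 18.1%. Median GC content of these windows was 53.7%, 53.2% and 53.2% near keratins, against 50.2%, 49.3% and 49.3%.

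Most genes that work with keratins had a promoter peak in each list. Of 13 genes that anchor keratin filaments to desmosomes and hemidesmosomes, 12 had a promoter peak in each list (all genes 65.5%), and PKP1, a plakophilin gene, had none. Of 11 epithelial transcription factor genes 10 had one in each list. TP63, the basal master regulator gene, had none at its annotated start but a peak at 3 of 6 coding starts in each list. Of 94 keratin-associated protein genes, which encode the matrix of hair, 2 had a promoter peak in each list, 9 in some and 83 in none (all genes 30%). Chosen after their values were seen, ELF3, an epithelial ETS factor gene, had a promoter area of 30345 in E545K, 6832 in H1047R and 2235 in WT, and GRHL3, a grainyhead factor gene, 9623, 4181 and 3458. Not all factor genes had that order, since TFAP2C had 8225 in E545K, 8434 in H1047R and 8873 in WT, and ZNF750 had 830, 2586 and 1021. A relation of these genes to KRT15 was not tested.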

How the data were processed

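ATAC-seq was done on 6 samples, 2 per genotype. Per the submitters' processing notes reads were handled with Trim Galore 0.4.0, cutadapt, FastQC and SAMtools, and peaks were called on hg38 with Genrich 0.6.1. Which aligner was used was not given in the sources used here. Each deposited list pools both samples of a genotype and gives, per peak, a signal (the area under the caller's curve) and a deposited -log10 p of the summit, as the authors' caller wrote them. They are not read counts, depth is unknown, and no interval or test across samples was made.

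Peaks were assigned to GENCODE 44 gene bodies with 5 kb on each side and to promoters of 1 kb on each side of the canonical start, with Python 3.11.15, numpy 2.4.6 and pandas 2.3.3. Areas of neighbouring peaks depend on whether the caller joined them, and covered length or summit value is given beside them for the main loci. Members, roles, gene lists and motifs were chosen with earlier results of these data known, and the thresholds of 10 and 30 rank points after seeing the data. Values in full were given for 10 fixed keratins, those with a promoter peak in some lists, those with a strong peak lacking a partner and those with the largest rank differences. Counts were checked against bedtools 2.31.1 (0 differences over 12 counts); in a copy of the WT list with 2000 peaks deleted, the 2000 were found, and 200 of 200 areas raised in an otherwise equal list were found.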

Additional observations from a re-analysis of the deposited data

How the results depend on the processing

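Of 139 values recomputed under 15 alternatives, all of them counts or covered bases, 105 stayed within 1.5 times and 34 moved further. Counts of keratin peaks without a partner moved most. For the 6 ordered pairs E545K to WT, WT to E545K, H1047R to WT, WT to H1047R, E545K to H1047R and H1047R to E545K they were 1, 1, 0, 0, 0 and 1 among the upper 50% by area, and 0, 1, 0, 0, 0 and 0 by summit value. With an area of at least 400 the counts were 7 for WT to E545K, 8 for H1047R to WT, 1 for WT to H1047R, 0 for E545K to H1047R and 9 for H1047R to E545K. With lists of equal length they were 7 for H1047R to WT, 9 for WT to H1047R, 6 for E545K to H1047R and 9 for H1047R to E545K. The order of H1047R and WT thus turned, from 15 and 5 as first counted, and the knock-ins came closer, from 2 and 18. Shares over all peaks were not counted for these alternatives, except for the upper 50% by area. A summit value of at least 3 gave 10 for WT to H1047R. With gene bodies only, the lists held 44 peaks in E545K, 57 in H1047R and 47 in WT, over 92150, 82858 and 80557 bases, and the counts were 5 for WT to E545K, 8 for H1047R to WT, 3 for WT to H1047R and 6 for H1047R to E545K. A promoter window of 2 kb gave 24 H1047R promoters and 7 that differed between lists. Fewer peaks or bases enter the stricter settings by construction. Otherwise the cause was not tested. The promoter peaks of KRT10 and KRT13 were lost with a window of 0.5 kb or an area of at least 400. That of KRT10 was also lost at a summit value of at least 3. Those of KRT78 were lost at 0.5 kb and with the summit required inside the window. KRT14 kept one in H1047R alone at 0.5 kb, lost that of H1047R at a summit value of at least 3, and had none with the area limit. With the summit required inside the window, KRT14 and KRT16 kept one in H1047R alone. KRT23 lost that of WT at 0.5 kb, with the area limit and at a summit value of at least 3. KRT19 had one in each list with 2 kb. Leaving out a replicate was not possible, since each list pools both samples. No paired analysis was possible because the lists hold no values per sample.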
